A study of Mus musculus with 9 samples.

Results

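A set of 10 genes of the heat shock chaperone system was followed in mouse embryonic stem cells, namely Hspa1a, Hspa1b, Hspb1, Dnajb1, Hsph1, Hsp90aa1, Hsp90ab1, Hspa8, Hspd1 and Hspe1. They were chosen by name, and every probe set that the array's annotation gives to 1 of these symbols alone was taken. This gave 22 probe sets of the 45101 on the array, for 9 of the 10 genes. Hsp90ab1, which no probe set names by itself, is not analysed here. All 22 probe sets passed the filter on low signals, under which 29811 probe sets of 13376 genes were tested. Inducible chaperones, which cells make in quantity after heat or other protein damage, are represented by Hspa1a, Hspa1b, Hspb1, Dnajb1, Hsph1 and Hsp90aa1, with 15 probe sets. Constitutive chaperones, present at high amounts in unstressed cells, are represented by Hspa8, Hspd1 and Hspe1, with 7 probe sets. Hspd1 and Hspe1 are known to respond to heat as well.

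The cells were of the line D3-pOct4, and each group was kept for 7 days in serum medium and read on 3 arrays, 1 each from passages 31, 33 and 34 (replicates 1, 2 and 3). The first group received 2 µM of DETA/NO, a donor that releases nitric oxide slowly, in medium without leukemia inhibitory factor (LIF). The second group had neither LIF nor donor. The third received LIF at 1000 U/ml, the cytokine that holds mouse embryonic stem cells undifferentiated. All arrays come from this 1 line, and the labels do not say whether the cultures of a passage were grown apart. The p-values therefore measure the spread between these arrays, which may be technical.

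Heat shock chaperones keep proteins folded. HSP70 proteins bind exposed stretches of unfolded protein in a cycle of ATP hydrolysis that J-domain proteins start and nucleotide exchange factors reset. HSP90 matures kinases, receptors and other clients, small heat shock proteins hold unfolded protein, and the chaperonin of Hspd1 and Hspe1 folds imported protein in mitochondria. In damaged cells the factor HSF1 forms trimers that bind heat shock elements, runs of inverted GAA units, in the promoters of the inducible genes. Embryonic stem cells are known for high basal amounts of several chaperones.

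Promoters are shown because this element is the known link between protein damage and the inducible genes. RefSeq promoters of the build GRCm38.p6, each 250 bases before to 50 bases after a start, were matched for 7 of the 10 genes in 10 windows, that is for all but Hsp90aa1, Hsp90ab1 and Hspa8. A pair of inverted units was searched as GAANNTTC and as TTCNNGAA, and the run of 3 units as TTCNNGAANNTTC, on both strands. Each pair pattern is its own reverse complement, and every run of 3 units holds a match of both pair patterns. The 250 bases before the start are printed 5′ to 3′ on the gene's strand, with matches in capitals, for the near-identical Hspa1a (chr17:34972157-34972406, minus strand) and Hspa1b (chr17:34959239-34959488, minus strand), for Hspb1 (chr5:135887669-135887918, plus strand), which has separate matches, and for Hspe1 (chr1:55087898-55088147, plus strand), which has an unbroken run.
Hspa1a: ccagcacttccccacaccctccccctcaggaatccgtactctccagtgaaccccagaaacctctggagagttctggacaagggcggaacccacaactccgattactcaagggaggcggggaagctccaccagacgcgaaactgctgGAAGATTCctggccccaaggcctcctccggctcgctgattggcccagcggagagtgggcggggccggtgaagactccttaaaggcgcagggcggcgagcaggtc
Hspa1b: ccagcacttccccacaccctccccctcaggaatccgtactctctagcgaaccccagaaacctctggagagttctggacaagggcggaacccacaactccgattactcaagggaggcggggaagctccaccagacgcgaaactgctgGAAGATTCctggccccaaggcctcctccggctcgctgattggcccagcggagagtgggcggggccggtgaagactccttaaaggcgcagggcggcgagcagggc
Hspb1: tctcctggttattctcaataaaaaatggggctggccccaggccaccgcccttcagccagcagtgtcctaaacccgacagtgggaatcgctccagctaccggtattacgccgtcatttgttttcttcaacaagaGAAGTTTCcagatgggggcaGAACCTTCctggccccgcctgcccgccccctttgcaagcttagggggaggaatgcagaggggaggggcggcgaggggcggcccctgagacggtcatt
Hspe1: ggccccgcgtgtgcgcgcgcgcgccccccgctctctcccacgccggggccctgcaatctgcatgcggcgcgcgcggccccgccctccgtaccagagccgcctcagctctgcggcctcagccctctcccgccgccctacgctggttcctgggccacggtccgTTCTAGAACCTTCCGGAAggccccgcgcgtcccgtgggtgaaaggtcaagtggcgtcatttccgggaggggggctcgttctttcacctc

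With -1 as the base before the start, the Hspa1a and Hspa1b promoters each hold 1 pair, GAAGATTC, from position -104. The windows of these 2 genes are identical at 296 of 300 positions (98.7%), and 3 of the differing positions lie in the 250 bases printed. Hspb1 holds 2 separate pairs, GAAGTTTC from -117 and GAACCTTC from -97. Hspe1 holds overlapping matches from -89, -84 and -79 that join into 1 run. The same run lies, read from the other strand, in the second of the Hspd1 windows, which shares 285 bases with that of Hspe1. Hsph1 holds the run of 3 units as TTCTGGAAAGTTC, from 37 bases after its first annotated start, and Dnajb1 has neither pair pattern in its windows. A pair pattern was thus present in 6 of the 7 genes, and the run of 3 units in 3 of them. By window, a pair pattern was present in 7 of 10. The near-identical windows of Hspa1a and Hspa1b, and the run that Hspd1 and Hspe1 share, are not separate instances. Among all 32851 promoters of the same length, 15.1% hold either pair pattern, with 7.86% holding GAANNTTC and 8.52% holding TTCNNGAA, and 0.603% hold the run of 3 units. A match is a description of these letters, and no binding was measured.

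Some properties of the arrays bear on every value that follows. The median signal was 20.8 to 23.3 on 3 brighter arrays (DETA/NO replicates 1 and 2, and LIF replicate 1) and 13.9 to 17.8 on the other 6, while each array's trimmed mean was 100. Socs3, a target of LIF signalling, went against its label on 2 arrays, with a signal of 3054 on the array labelled no LIF replicate 2 and 282 on the array labelled LIF replicate 2. The arrays of DETA/NO replicate 3 and no LIF replicate 1 were the most alike of all pairs, with an SD of their log2 differences over tested probe sets of 0.49, against 0.70 for the next pair and 1.56 for the least alike. Embryonic stem cell markers were all measured (9 of 9), and their summed signal was 13250 to 18070 with the donor, 19210 to 28260 without LIF and 16600 to 23650 with LIF. Parietal and primitive endoderm markers summed to 1471 to 3436 with the donor, 1529 to 5281 without LIF and 3827 to 12840 with LIF (8 of 8 measured). Primed epiblast markers summed to 1966 to 5312, 679.6 to 6068 and 508.2 to 2450 in the same groups (4 of 4 measured). Feeder fibroblast markers summed to 84.6 to 378.8 over the arrays (8 of 8 measured). Col1a1 stayed between 2.73 and 25.5, while Thy1 ran from 24.0 to 94.5 and Pdgfrb from 17.1 to 234.6. The part of these differences in the chaperone values was not tested, except where values with brightness as a block or without the doubted arrays are given.

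None of the 22 chaperone probe sets passed an adjusted p of 0.05 (limma, Benjamini-Hochberg over all tested probe sets) in any of the 3 comparisons. Each pair of comparisons shares an array group, so their values are given side by side and not as independent evidence. With the donor against no LIF, 0 of the 22 passed, against 0% of all tested probe sets, and adjusted p ran from 0.929 to 0.997. At an unadjusted limma p below 0.05 the count was 0 of 22 against 5.02% (1498 of 29811), and 1 of 22 had groups that did not overlap in either direction, against 8.92%. With the donor against LIF, 0 of 22 passed against 0%, every member's adjusted p was 1, 0 of 22 were below the unadjusted threshold against 1.94% (578), and 0 of 22 did not overlap against 5.98%. Without LIF against LIF, 0 of 22 passed against 0%, adjusted p ran from 0.973 to 0.982, 0 of 22 were below the unadjusted threshold against 1.54% (459), and 0 of 22 did not overlap against 7.60%. The single probe set without overlap was a second one of Hspa8, described below. Standard errors of the members' log2 differences ran from 0.210 to 0.972, so that for several of them a change of 2-fold lies inside the 95% interval.

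**Figure D1:**
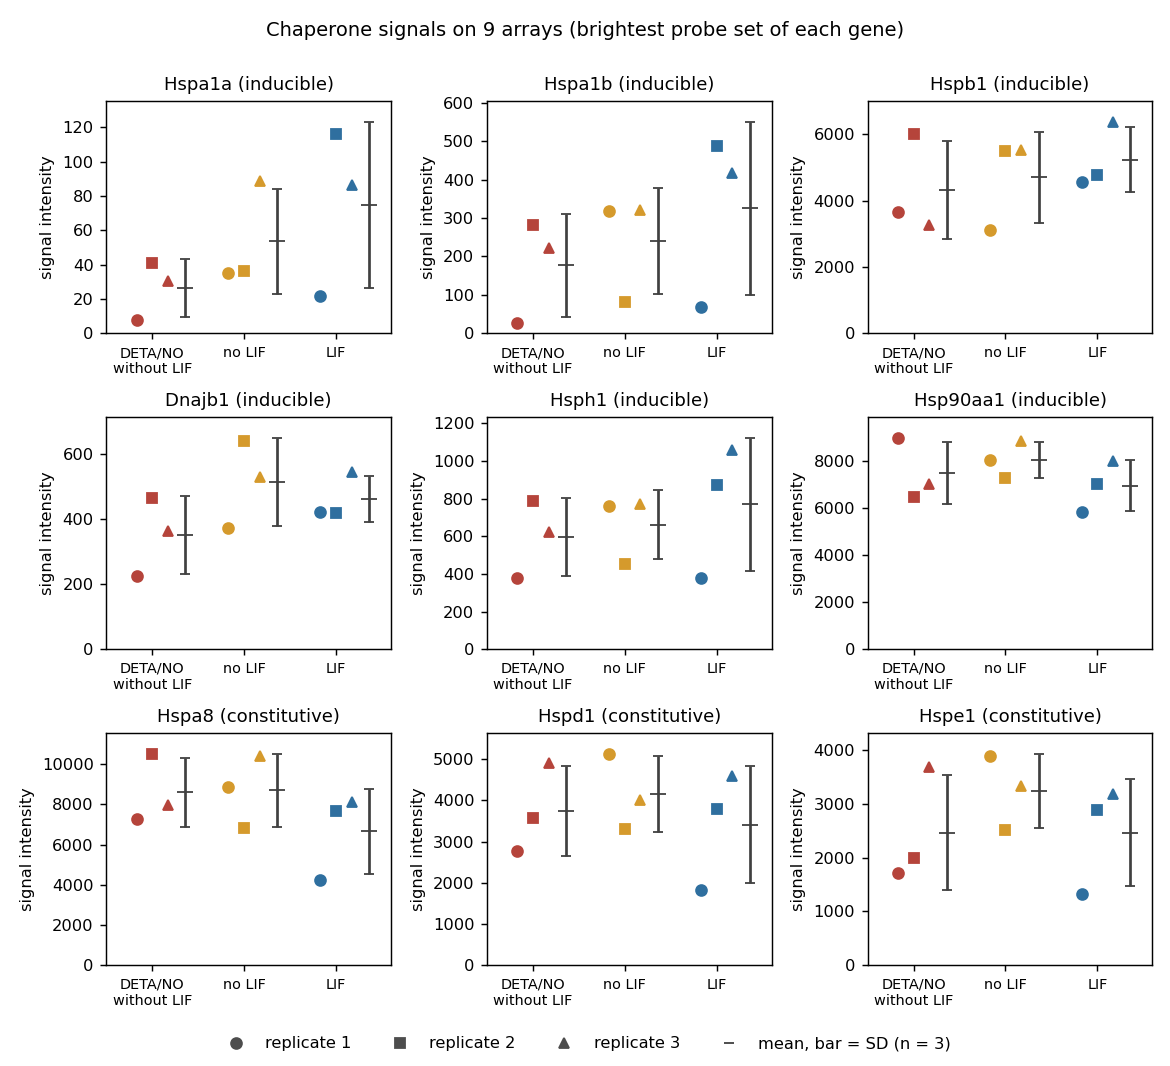
Signal intensity (linear, in the array's own units) of the probe set that stands for each of 9 chaperone genes, on 3 arrays per group, with the mean and SD (n = 3) beside the points. The groups overlap in every panel, and Hspa1a and Hspa1b have their lowest value on DETA/NO replicate 1.

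Hspa1a encodes a stress-inducible cytosolic HSP70. Its probe set read 7.67, 41.1 and 30.7 on DETA/NO replicates 1 to 3, 35.2, 36.5 and 88.9 on the no LIF arrays, and 21.6, 116 and 86.3 on the LIF arrays. All 3 donor arrays lay below the 2 highest LIF arrays, but the groups overlapped. DETA/NO replicate 2 lay above no LIF replicates 1 and 2 and above LIF replicate 1. In bulk RNA, fewer cells that make a transcript and less of it per cell cannot be told apart. The lowest value lay under the 40th percentile of its array (13.3), and the highest was 15.1 times the lowest. The log2 difference, of log2(signal + 3) here and throughout, was -1.04 with the donor against no LIF (SE 0.709, adjusted p = 0.929) and -1.35 with the donor against LIF (SE 0.709, 95% interval -2.91 to 0.22, adjusted p = 1). The difference of the donor from no LIF was -1.84, 0.16 and -1.45 at the 3 passages, so its sign did not hold. The difference from LIF was -1.20, -1.43 and -1.41. In the comparison of the donor with LIF, Hspa1a had the smallest unadjusted limma p of the members, 0.0848. Against no LIF the donor value was -0.14 with array brightness as a block and -0.43 without DETA/NO replicate 1, and against LIF it was -0.73 without DETA/NO replicate 1 and -2.04 without LIF replicate 1. Between no LIF and LIF the log2 difference was -0.30 (SE 0.709, adjusted p = 0.973), and it was 0.34 without the replicate 2 arrays of those groups.

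Hspa1b, the near-identical paralog of Hspa1a, has 3 probe sets, and since RNA of either gene may bind the probes of the other, the assignment between the paralogs is uncertain. The brightest read 26.8, 281 and 223 with the donor, 318, 81.7 and 322 without LIF, and 69.2, 487 and 418 with LIF. Each group thus held 1 low array and a pair of high ones. Its log2 difference was -0.74 with the donor against no LIF (SE 0.972, adjusted p = 0.957) and -0.99 with the donor against LIF (SE 0.972, 95% interval -3.14 to 1.16, adjusted p = 1). For no LIF against LIF it was -0.25 (SE 0.972, adjusted p = 0.981), and the passages gave 2.15, -2.53 and -0.37. The donor value against LIF was below 0 at all 3 passages for each of the 3 probe sets, at -0.73 and -1.01 for the other two. Against LIF the brightest gave -0.33 with array brightness as a block and 0.04 without DETA/NO replicate 1. Against no LIF it gave 0.58 and 0.29 under the same settings, so that neither sign held without that array.

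Hsph1 encodes an HSP110, which acts as a nucleotide exchange factor for HSP70. It read 378.8, 788.6 and 623 with the donor, 758.3, 450 and 773.6 without LIF, and 376.8, 871.1 and 1059 with LIF. The low arrays were the same 3 as for Hspa1b, namely DETA/NO replicate 1, no LIF replicate 2 and LIF replicate 1. Log2 differences were -0.17 with the donor against no LIF (adjusted p = 0.979), -0.30 with the donor against LIF (adjusted p = 1) and -0.13 without LIF against LIF (adjusted p = 0.978), each with an SE of 0.456. A second probe set read 172.4, 184.4 and 376.7 with the donor, 460.9, 232 and 239.7 without LIF, and 234.3, 517.3 and 746.9 with LIF. It was lower with the donor than with LIF at all 3 passages, with a log2 difference of -0.96 (SE 0.508, 95% interval -2.09 to 0.16, adjusted p = 1).

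Dnajb1 encodes HSP40, a J-domain protein that starts the HSP70 cycle. It read 225.8, 465.3 and 361.6 with the donor, 371.7, 640.3 and 528.9 without LIF, and 422.5, 418.3 and 543.7 with LIF. The donor array was the lower one at each of the 3 passages against no LIF, although the groups overlapped. The log2 difference was -0.57 with the donor against no LIF (SE 0.369, 95% interval -1.39 to 0.24, adjusted p = 0.929). It was -0.44 with the donor against LIF (adjusted p = 1) and 0.13 without LIF against LIF (adjusted p = 0.974), with the same SE. The second Dnajb1 probe set did not share this pattern: against no LIF it was lower with the donor at 1 of 3 passages, with a log2 difference of -0.24 (SE 0.388, adjusted p = 0.965).

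Hspb1 encodes HSP27, a small heat shock protein that holds unfolded protein without ATP. It read 3659, 6012 and 3280 with the donor, 3131, 5489 and 5519 without LIF, and 4576, 4783 and 6367 with LIF. The 3 lowest arrays were no LIF replicate 1 and DETA/NO replicates 3 and 1, and the groups overlapped. The highest value was 2.03 times the lowest. Hspb1 differed by a log2 value of -0.13 with the donor against no LIF (adjusted p = 0.978), -0.32 with the donor against LIF (adjusted p = 1) and -0.19 without LIF against LIF (adjusted p = 0.973), each with an SE of 0.320. The second Hspb1 probe set gave -0.21, -0.44 and -0.23 for the same comparisons.

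Hsp90aa1 encodes the inducible HSP90 of the cytosol. It read 8990, 6500 and 7028 with the donor, 8056, 7308 and 8848 without LIF, and 5823, 7050 and 7992 with LIF. Its highest value was 1.54 times its lowest, the narrowest range among the 9 genes. The log2 difference was -0.11 with the donor against no LIF (95% interval -0.61 to 0.38, adjusted p = 0.970), 0.11 with the donor against LIF (-0.39 to 0.60, adjusted p = 1) and 0.22 without LIF against LIF (-0.27 to 0.72, adjusted p = 0.973). These intervals, with an SE of 0.224, leave out a change of 1 log2 unit in either direction, which those of Hspa1a and Hspa1b do not. Of its other 4 probe sets, 2 were of similar steadiness, with ranges of 1.49 and 1.42 times. With the donor against no LIF these 2 gave log2 differences of -0.03 and 0.18, the latter higher with the donor at all 3 passages. The remaining 2 were near or below the 40th percentile of the arrays, at 5.47 to 17.3 and at 1.46 to 16.8. They gave 0.43 and 0.84 with the donor against no LIF. The dimmest was higher on the 3 brighter arrays than on all others.

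Hspa8 encodes the constitutive HSC70, which serves folding and transport in unstressed cells. Its brightest probe set, with the suffix _x_at, which marks probes that may bind related transcripts, read 7296, 10510 and 7977 with the donor, 8877, 6810 and 10430 without LIF, and 4239, 7658 and 8097 with LIF. LIF replicate 1 stood low, and the other 8 arrays lay between 6810 and 10510. The log2 difference was -0.01 with the donor against no LIF (95% interval -0.67 to 0.64, adjusted p = 0.997), 0.41 with the donor against LIF (-0.25 to 1.06, adjusted p = 1) and 0.42 without LIF against LIF (-0.24 to 1.08, adjusted p = 0.973). The second probe set read 6067, 5949 and 5755 with the donor and 6512, 6097 and 7471 without LIF, so that all donor arrays lay below all no LIF arrays. Its log2 difference was -0.17 (SE 0.210, adjusted p = 0.954). With LIF it read 4791, 5612 and 6273, and against LIF it gave 0.10 with the donor and 0.27 without LIF. A further bright probe set, at 2787 to 4949, gave -0.08 with the donor against LIF and 0.09 without LIF against LIF. The only Hspa8 probe set free of the suffixes _x_at, _s_at (shared by several genes) and _a_at (several transcripts of 1 gene) read 78.3 to 200.3 on the 9 arrays and gave log2 differences of -0.34 with the donor against LIF and -0.20 without LIF against LIF, both opposite in sign to those of the brightest.

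Hspd1 encodes HSP60, the barrel of the mitochondrial chaperonin. It read 2758, 3572 and 4908 with the donor, 5129, 3299 and 4019 without LIF, and 1832, 3790 and 4594 with LIF. LIF replicate 1 and DETA/NO replicate 1 were lowest, and no LIF replicate 1 was highest. Log2 differences of Hspd1 were -0.16 with the donor against no LIF (adjusted p = 0.974), 0.20 with the donor against LIF (adjusted p = 1) and 0.36 without LIF against LIF (adjusted p = 0.973), each with an SE of 0.372.

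Hspe1 encodes HSP10, the lid of that barrel. It read 1706, 1996 and 3685 with the donor, 3885, 2511 and 3326 without LIF, and 1322, 2877 and 3183 with LIF. The 3 low values are those of the 3 brighter arrays, at 1322 to 1996 against 2511 to 3885 on the other 6. A second probe set of the gene parted the arrays in the same way, at 461.8 to 701.9 against 926.8 to 2003. Among all tested probe sets, 7.27% were lower on the brighter arrays without overlap and 14.6% were higher. The log2 difference of Hspe1 was -0.46 with the donor against no LIF (SE 0.404, adjusted p = 0.931), 0.02 with the donor against LIF (adjusted p = 1) and 0.47 without LIF against LIF (adjusted p = 0.973). With array brightness as a block, the donor value against no LIF was 0.27. Its second probe set, which has no such suffix, gave log2 differences of -0.87, -0.35 and 0.52 in the same 3 comparisons (adjusted p = 0.929, 1 and 0.973).

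**Figure D2:**
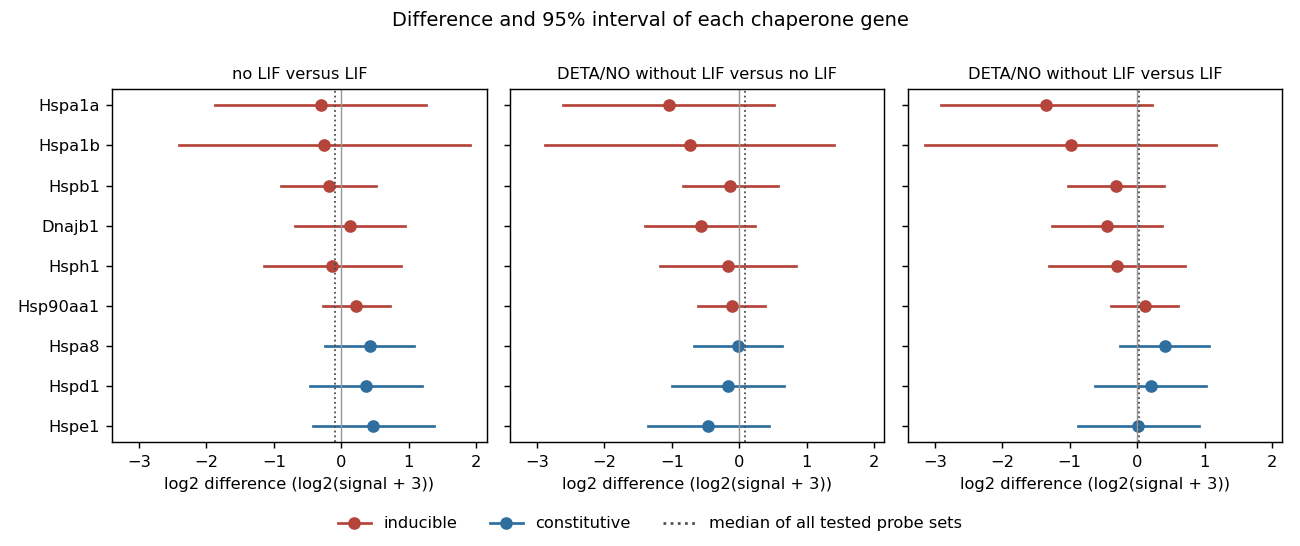
Log2 difference of each chaperone gene in the 3 comparisons, from limma on log2(signal + 3), with bars for the 95% confidence interval (n = 3 arrays a group). Every interval includes 0, and those of Hspa1a and Hspa1b are the widest.

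Inducible and constitutive chaperones are set side by side here as a description with no test, since the members were chosen by name with earlier results known. Their median log2 differences had the same sign with the donor against no LIF and opposite signs in the other two comparisons. The SD of log2(signal + 3) over 9 arrays ran from 0.20 to 1.38 among the 6 inducible genes, with a median of 0.49, and from 0.39 to 0.53 among the 3 constitutive genes, with a median of 0.46. All tested probe sets had a median SD of 0.61, and those with a mean signal of 1000 or more had 0.46. The class medians of the SD were thus close, and the wide inducible range came from the paralogs Hspa1a and Hspa1b, with SDs of 1.08 and 1.38. On the probe sets that stand for the genes, Hsp90aa1, at 0.20, was steadier than each constitutive gene. The second Hspa8 probe set, however, had an SD of 0.17.

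With the donor against no LIF, all 9 genes lay below 0 on the probe sets that stand for them. The median was -0.37 for 6 of 6 inducible and -0.16 for 3 of 3 constitutive genes, beside 0.08 over all tested probe sets. The count depends on the probe set chosen, since another bright one of Hsp90aa1 gave 0.18. With array brightness as a block, 2 of 6 inducible and 3 of 3 constitutive genes lay above 0, with medians of -0.09 and 0.27. Quantile normalization put 2 of 6 and 2 of 3 above 0, with medians of -0.33 and 0.14, and without DETA/NO replicate 1 the medians were -0.14 and 0.04. For the donor against LIF, 5 of 6 inducible genes lay below 0 on the same probe sets, with a median of -0.38. There 3 of 3 constitutive genes lay above 0 with a median of 0.20, beside 0.02 over all tested. Without DETA/NO replicate 1 the inducible median was -0.09, and without LIF replicate 1 the constitutive median was -0.20. The paralogs Hspa1a and Hspa1b, whose signals may not be separate, lay farthest below 0 in both donor comparisons. Under the stricter filter, which left out Hspa1a, the inducible median was -0.17 with the donor against no LIF and -0.32 against LIF. Between no LIF and LIF, 4 of 6 inducible genes lay below 0 with a median of -0.16, and 3 of 3 constitutive genes above 0 with a median of 0.42, beside -0.10 over all tested. The sign of that inducible median turned, to 0.06 under median centring and 0.29 without the replicate 2 arrays of both groups, each with 4 of 6 genes above 0, and it was 0.00 without no LIF replicate 1. Without LIF replicate 1 the constitutive median was 0.08. Each of the 6 medians was below the SD between arrays of one group, which was 0.47 for the inducible and 0.50 for the constitutive median. That SD describes single arrays and is wider than the error of a difference between group means, so it is no test of these medians. Summed stem cell markers were also lowest in the donor group and did not overlap those without LIF, and their part in the inducible values was not tested. Of the single markers, Dppa5a and Tdgf1 did not overlap between these groups. Pou5f1, Nanog, Sox2, Zfp42, Esrrb, Utf1 and Lin28a did overlap. The constitutive median of the donor against LIF was also -0.34 without the probe sets of the suffixes _x_at, _s_at and _a_at.

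By array, the inducible median, as the deviation of each gene from its own mean over 9 arrays, was -0.82, 0.22 and -0.16 with the donor, -0.04, -0.09 and 0.30 without LIF, and -0.55, 0.25 and 0.60 with LIF. The constitutive median was -0.39, -0.02 and 0.44 with the donor, 0.51, -0.13 and 0.37 without LIF, and -0.96, 0.07 and 0.31 with LIF. The lowest inducible array was thus DETA/NO replicate 1 and the lowest constitutive array LIF replicate 1, both among the brighter arrays. Both classes had values on either side of 0 in every group.

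**Figure D3:**
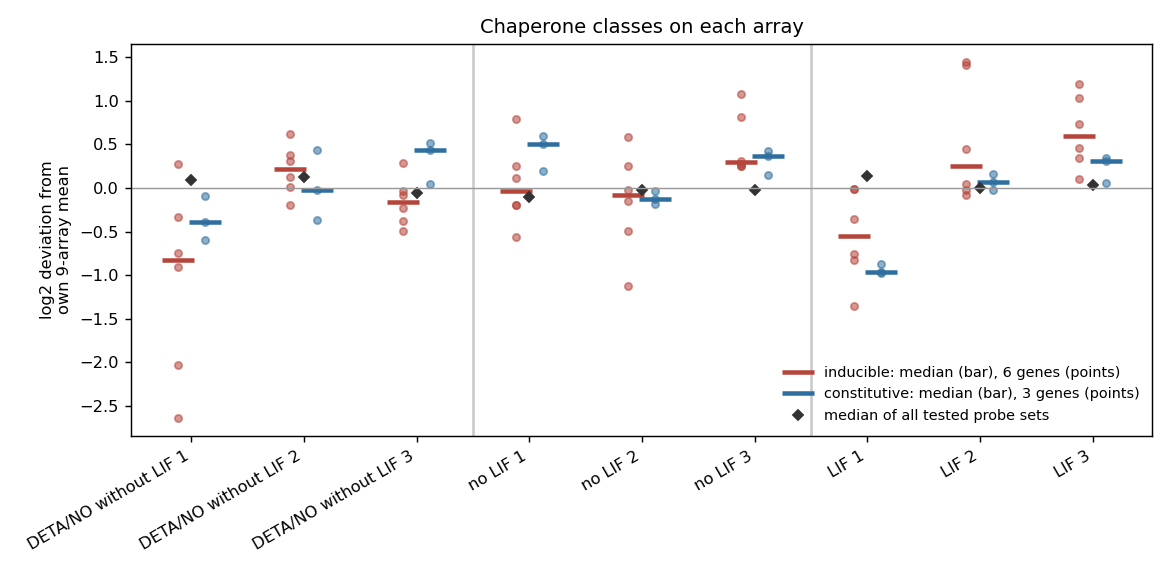
Median deviation of 6 inducible and 3 constitutive chaperone genes, and of all tested probe sets, from each gene's own mean over 9 arrays (log2 units), for every array. DETA/NO replicate 1 is lowest for the inducible genes at -0.82 and LIF replicate 1 for the constitutive genes at -0.96.

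Some chaperones varied together over the 9 arrays whatever the group. These correlations of log2(signal + 3) are descriptions over arrays that share the same scaling and 3 groups, given without p. Hspd1 and Hspe1 had a Pearson r of 0.949 and a Spearman rho of 0.967, and 0.643% of the other tested genes had an r with Hspe1 at least as high. The 2 genes form 1 complex and share a promoter region, and the part of either in this r was not tested. Their r was 0.85 without the 2 arrays farthest from the median of Hspd1. Hspa1b and Hsph1 had an r of 0.947 and a rho of 0.917, with r at 0.941 without the 2 arrays farthest from the median of Hspa1b. These values are for the brightest probe set of each gene. The second Hsph1 probe set had other lowest arrays, namely DETA/NO replicates 1 and 2 and no LIF replicate 2. Hspa1a and Hspa1b had an r of 0.884 and a rho of 0.900, with r at 0.704 without the 2 arrays farthest from the median of Hspa1a. Hspb1 and Dnajb1 had an r of 0.733, while Hspa1b and Hsp90aa1, both inducible, had an r of -0.02. Pairs of an inducible and a constitutive gene ran from -0.17 for Hspb1 and Hspe1 to 0.759 for Hsph1 and Hspd1. All pairs of the 13376 tested genes had a median r of 0.02 and a 90th percentile of 0.649.

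**Figure D4:**
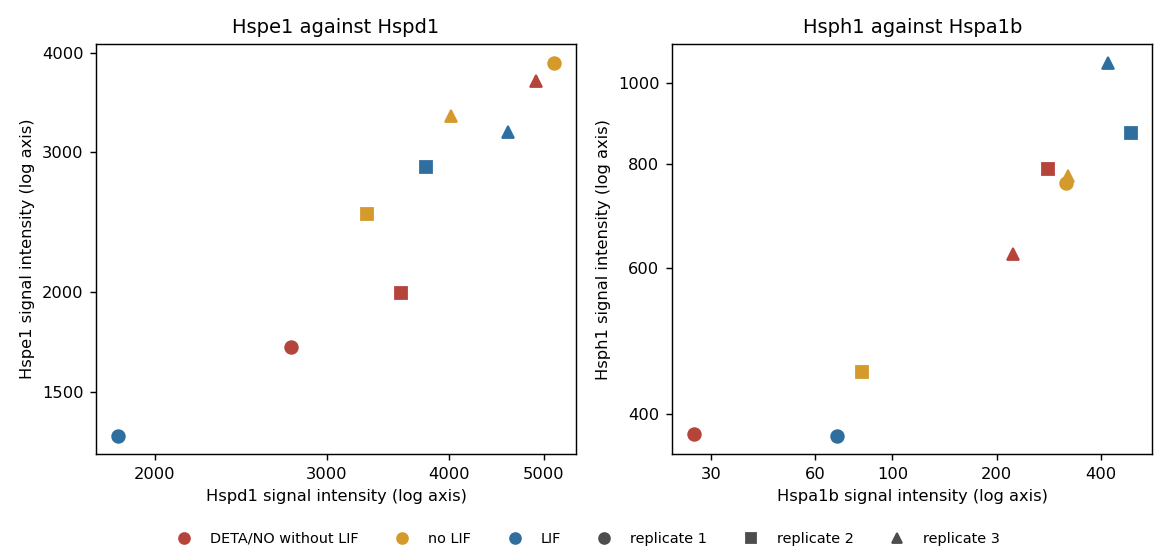
Signals of Hspe1 against Hspd1 and of Hsph1 against Hspa1b on 9 arrays, for the brightest probe set of each gene (both axes logarithmic, colour for group, shape for replicate). In both panels the arrays line up across groups, with LIF replicate 1 and DETA/NO replicate 1 at the low end.

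Other genes followed the members with the widest spread of each class even more closely. Most like Hspa1b over the 9 arrays were Gchfr (r = 0.954), which regulates GTP cyclohydrolase, Ogt (0.952), the enzyme that attaches O-linked N-acetylglucosamine to proteins, Rassf3 (0.950), the phosphatase Dusp12 (0.949) and the deubiquitinase Usp12 (0.946). Of the other 8 measured members, Hsph1, with its r of 0.947, lay within this range. Most like Hspe1 were Nme2 (0.982), a nucleoside diphosphate kinase, Asb13 (0.981), Polr3g (0.981), a subunit of RNA polymerase III, Naca (0.981), which binds nascent chains at the ribosome, and Snrpg (0.980), a core protein of the spliceosome. Nme2 read 1594, 2077 and 5650 with the donor, 5517, 3148 and 5250 without LIF, and 1139, 4961 and 4051 with LIF, so that the 3 brighter arrays were its lowest as they were for Hspe1.

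The wider chaperone network was read from 8 lists of 87 genes, of which 77 were tested and 0 passed the adjusted threshold in any comparison, against 0% of all tested probe sets. For the donor against no LIF, 23 of the 77 lay above 0 and 54 below, with a median log2 difference of -0.23 beside 0.08 over all tested. For the donor against LIF, 43 lay above and 34 below, with a median of 0.04 beside 0.02. Between no LIF and LIF, 54 lay above and 23 below, with a median of 0.28 beside -0.10. At an unadjusted limma p below 0.05 the counts were 1, 0 and 0 of the 77 genes, beside 5.02%, 1.94% and 1.54% of all tested probe sets, so that the list share was below the background each time.

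That gene was Cdc37, the co-chaperone that brings kinases to HSP90. It read 566.4, 792.2 and 1098 with the donor, 1106, 1588 and 1489 without LIF, and 592.7, 1029 and 932.3 with LIF. All donor arrays lay just below all no LIF arrays, with a log2 difference of -0.80 (SE 0.351, adjusted p = 0.929). For no LIF against LIF it was 0.73 (SE 0.351, adjusted p = 0.973), and for the donor against LIF -0.07. Stip1, which links HSP70 to HSP90, had a log2 difference of -0.69 with the donor against no LIF (SE 0.346, adjusted p = 0.929). With the donor against LIF it was -0.17. The list of HSP90 paralogs and co-chaperones had 10 of 12 tested genes below 0 with the donor against no LIF (median -0.41) and 10 of 12 above 0 without LIF against LIF (median 0.35). Both of these comparisons share the no LIF arrays. With the donor against LIF, 5 of the 12 lay above 0 and 7 below (median -0.06).

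TRiC, the cytosolic chaperonin, and prefoldin, which hands it unfolded actin and tubulin, had 14 of 14 genes below 0 with the donor against no LIF (median -0.45), 9 of 14 above 0 with the donor against LIF (0.13) and 14 of 14 above 0 without LIF against LIF (0.53). The first and last of these share the no LIF arrays, and no gene passed the test. With array brightness as a block, the donor median against no LIF was 0.13, with 10 of 14 above 0. The nucleotide exchange and BAG factors had 9 of 10 below 0 with the donor against no LIF (median -0.25), 6 of 10 above 0 with the donor against LIF (0.05) and 10 of 10 above 0 without LIF against LIF (0.27).

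Of the heat shock factors, Hsf1 likewise stands by itself on no probe set and is not analysed here. Hsf2 read 29.9, 42.8 and 9.06 with the donor, 4.06, 13.5 and 23.4 without LIF, and 43.4, 10.2 and 20.5 with LIF. Its 3 highest values fell on the brighter arrays, and its log2 difference was 0.85 with the donor against no LIF (SE 0.682, adjusted p = 0.929). Hsf4 had a log2 difference of 0.86 with the donor against no LIF (SE 0.509, adjusted p = 0.929) and -1.10 without LIF against LIF (adjusted p = 0.973), at signals of no more than 17.9. With the donor against LIF it was -0.23. Hsbp1, which binds the HSF1 trimer, read 132.5, 126.9 and 532.1 with the donor, 621.1, 420.8 and 385.3 without LIF, and 198.3, 462.9 and 376.3 with LIF, with a log2 difference of -1.15 with the donor against no LIF (SE 0.563, adjusted p = 0.929).

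The remaining lists had smaller medians or few members. Dnajb14, a J-domain protein of the endoplasmic reticulum, had a log2 difference of 1.05 with the donor against no LIF (SE 0.529, adjusted p = 0.929) and of -1.06 without LIF against LIF (adjusted p = 0.973). With the donor against LIF it was -0.015. The other J-domain proteins had medians of 0.04, 0.15 and 0.05 in the 3 comparisons (17 of 18 tested), and the other HSP70 family members -0.07, 0.07 and -0.01 (9 of 11 tested). Hspa12a, a distant HSP70 relative, had a log2 difference of -0.59 with the donor against LIF (SE 0.432, adjusted p = 1). Of the small heat shock proteins, 5 of 8 were tested, with medians of -0.14, -0.48 and -0.34 in the same order. Hspb2 and Hspb8 gave -0.88 (SE 0.483) and -0.74 (SE 0.552) with the donor against LIF (adjusted p = 1 for both). The mitochondrial proteases and chaperones had medians of -0.28, -0.07 and 0.19 (7 of 7 tested).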

How the data were processed

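Gene expression was read on 9 Affymetrix Mouse Genome 430 2.0 arrays, 3 per group. The deposited signal intensities are linear; per the labels, the authors scaled each array globally in GeneChip Operating System 1.4.0.036. MAS5 is named in the submitters' processing notes. Each array's trimmed mean, leaving out 2% at each end, was 100. Scanner files were not used here. Gene symbols came from the annotation of the platform.

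Signals were turned to log2(signal + 3). The 64 control probe sets were left out, and 29811 probe sets at or above the 40th percentile of their array on at least 3 of 9 arrays were tested in 1 fit over all arrays (limma 3.58.1, R 4.3.3, lmFit, then eBayes with trend, two-sided, Benjamini-Hochberg at 0.05). A log2 difference on this scale understates changes of dim probe sets. The brightest tested probe set stood for a gene. The number of arrays limits the precision.

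The members and lists were chosen with earlier results of these data known. Named besides the members are Hsf2, the 3 list genes with the smallest p in each comparison, and the 5 genes most like the member of each class with the largest SD. The replicate number, which per the labels' titles stands for the passage and so matches the arrays of the 3 groups, was a block in an alternative fit; deviations of same-numbered arrays from their group means correlated at -0.597 to 0.65. Other alternatives were the pseudocount, the filter, the normalization, the variance trend, the probe set kind, brightness as a block, and arrays left out. Promoters came from RefSeq, GRCm38.p6, and were searched with Python 3.11.15.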

Additional observations from a re-analysis of the deposited data

How the results depend on the processing

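In 13 other settings and with each of the 9 arrays left out, no probe set was called in any of the 3 comparisons, and unadjusted limma p-values below 0.05 ranged from 486 to 4290 probe sets with the donor against no LIF, from 177 to 1653 with the donor against LIF and from 152 to 2444 without LIF against LIF. All member values stayed short of the threshold, so a change of sign is one between values that the spread covers, and its cause was not tested. With the replicate number, and so the passage, as a block, 0 probe sets were called in each comparison, and no call changed. Since each group has 1 array of each passage, this block cannot change a log2 difference, only its standard error. Quantile normalization shifted the median of all tested probe sets by -0.15 with the donor against no LIF and by 0.15 without LIF against LIF, and gave 0.17 for Hspb1, 0.12 for Hsp90aa1, 0.17 for Hspa8 and 0.14 for Hspd1 in the first and -0.05 for Hsp90aa1 in the second. Median centring shifted it by -0.23 and 0.22, and gave 0.03 for Hspb1 and 0.09 for Hsph1 without LIF against LIF. Brightness as a block gave, with the donor against no LIF, 0.58 for Hspa1b, 0.34 for Hsph1, 0.24 for Hspa8, 0.45 for Hspd1 and 0.27 for Hspe1, and 0.13 for the median of TRiC and prefoldin, a list value added after seeing the data. Without both replicate 2 arrays of the LIF and no LIF groups, 0.34 for Hspa1a, 0.89 for Hspa1b, -0.11 for Dnajb1 and 0.28 for Hsph1 were found without LIF against LIF, and 0.00 for Hspb1 with the donor against no LIF. Without the 2 alike arrays, Hspa8 gave 0.06 with the donor against no LIF, Hspd1 -0.02 and Hspe1 -0.32 with the donor against LIF, and Hspb1 0.09 without LIF against LIF. Without probe sets of the suffixes _x_at, _s_at and _a_at, which left Hspb1 and Hsph1 with no value, Hspa8 gave -0.34 and Hspe1 -0.35 with the donor against LIF, the constitutive median there was -0.34, and Hspa8 gave -0.20 without LIF against LIF. With 1 array left out, the values with the donor against no LIF ran from -1.38 to 0.29 for Hspa1b, -0.40 to 0.04 for Hspb1, -0.42 to 0.13 for Hsph1, -0.18 to 0.13 for Hspa8 and -0.38 to 0.04 for Hspd1. Against LIF, donor values ran from -1.87 to 0.04 for Hspa1b, -0.03 to 0.21 for Hsp90aa1, -0.20 to 0.47 for Hspd1 and -0.38 to 0.25 for Hspe1. Between no LIF and LIF they ran from -0.99 to 0.14 for Hspa1a, -1.14 to 0.39 for Hspa1b, -0.32 to 0.09 for Hspb1, -0.05 to 0.34 for Dnajb1, -0.58 to 0.16 for Hsph1 and -0.03 to 0.63 for Hspd1. Pseudocounts of 1 and 16 changed the sign of no member. The filters, the variance trend and the fit on the 2 groups alone cannot change the log2 difference of a probe set, so its sign there is no check. The stricter filter left out Hspa1a. Signals near background, as for Hspa1a at 7.67, limit its precision.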
